A study of Mus musculus with 6 samples.

Results

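The immediate early genes were examined in RNA of cerebral microvessels from 3 WT and 3 TEKCRIF1 KO mice. They were taken as 37 named genes, chosen by gene symbol, of the 23183 genes with a value in every library, and 33 of the 37 were among the 14247 genes tested, those whose mean over the 6 libraries reached 1 FPKM (sequenced fragments scaled to transcript length and to the size of the library). KO mice were TEK-cre, *Crif1* flox/flox, and WT mice carried the same TEK-cre with intact *Crif1* (*Crif1* +/+), all labelled as C57BL/6 with no treatment and 1 library per mouse. *Tek* encodes an endothelial receptor tyrosine kinase, and a Cre driven by it is also active in part of the blood lineage. *Crif1* (*Gadd45gip1*) encodes a protein needed to make the mitochondrially encoded subunits of oxidative phosphorylation. The age and sex of these mice are not given in the sources used here. The microvessels were isolated from homogenized brain by a dextran step and a cell strainer, so that endothelial cells, pericytes and attached cells of other kinds were sequenced together, and fewer cells of a type cannot be told apart from less RNA per cell.

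Immediate early genes are transcribed when a cell receives a signal, without new protein synthesis, because the factors that switch them on are already present. The MAP kinases activate serum response factor and its ETS partners at serum response elements, and calcium and cAMP act through CREB at cAMP response elements. Many of the products are transcription factors (AP-1, EGR and NR4A proteins) that switch on later genes, and others, such as MAP kinase phosphatases and mRNA decay factors, shut the response down. In brain, several of them (*Arc*, *Npas4*, *Egr3*) are best known as activity-dependent genes of neurons, while in vessels the response follows growth factors, flow and stress.

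The sites named above can be read in the promoters of the genes. RefSeq windows of the 250 bases before the start (GRCm38.p6) were matched for 30 of the 37 genes, in 39 windows, and 7 genes (*Fosl1*, *Egr1*, *Egr3*, *Ier2*, *Myc*, *Trib1* and *Arc*) had no match. *Fos* is shown as the best known gene of the group, *Dusp5* for its pair of serum response elements, *Dusp1* for its full cAMP response element and *Socs3* for its EGR site. Each is printed 5′ to 3′ on the strand of its gene, with the searched motifs in capitals: TGACG or its complement CGTCA (the core of the cAMP response element), TGACGTCA (the full element, which contains it), TATAAA, the EGR site GCGNGGGCG on either strand, and the serum response element.
*Fos*, chr12:85473640-85473889, plus strand: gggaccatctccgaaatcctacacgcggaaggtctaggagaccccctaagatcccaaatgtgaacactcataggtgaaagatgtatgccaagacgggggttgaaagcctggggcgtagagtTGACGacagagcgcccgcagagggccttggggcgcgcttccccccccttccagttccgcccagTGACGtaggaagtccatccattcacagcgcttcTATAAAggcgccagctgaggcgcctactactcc
*Dusp5*, chr19:53528895-53529144, plus strand: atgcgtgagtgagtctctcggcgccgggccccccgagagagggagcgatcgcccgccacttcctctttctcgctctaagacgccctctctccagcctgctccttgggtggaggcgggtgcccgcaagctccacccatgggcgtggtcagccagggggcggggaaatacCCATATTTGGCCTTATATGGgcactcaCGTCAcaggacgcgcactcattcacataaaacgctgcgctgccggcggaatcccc
*Dusp1*, chr17:26508473-26508722, minus strand: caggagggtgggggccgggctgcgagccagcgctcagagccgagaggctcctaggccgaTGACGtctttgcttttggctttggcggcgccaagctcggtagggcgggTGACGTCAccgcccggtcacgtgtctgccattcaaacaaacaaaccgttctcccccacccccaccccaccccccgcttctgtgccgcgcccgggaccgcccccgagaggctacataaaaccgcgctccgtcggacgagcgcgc
*Socs3*, chr11:117969367-117969616, minus strand: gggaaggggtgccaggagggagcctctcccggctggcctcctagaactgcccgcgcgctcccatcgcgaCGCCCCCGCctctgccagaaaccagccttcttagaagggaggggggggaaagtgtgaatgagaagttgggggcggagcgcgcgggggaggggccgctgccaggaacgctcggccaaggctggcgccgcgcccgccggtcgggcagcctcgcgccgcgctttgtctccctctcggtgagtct

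In *Fos* the cores lay 129 to 125 and 66 to 62 bases before the start, and the TATA box lay 33 to 28 bases before it. The adjoining serum response elements of *Dusp5* spanned the bases 82 to 73 and 72 to 63 before its start. The full cAMP response element of *Dusp1* lay 143 to 136 bases before the start, and the EGR site of *Socs3*, read on the opposite strand, 181 to 173 bases before it. Over all matched windows, the core TGACG was held by 22 of 39 (56.4%, 16 genes) and by 17.8% of all 32851 promoter windows of the same length, with both strands searched. The full TGACGTCA was held by 4 windows (10.3%: *Btg2*, *Dusp1*, *Maff* and *Ppp1r15a*) against 1.55% of all windows, and the EGR site by 10 windows (25.6%) against 4.70%. The serum response element was found in 6 windows (15.4%) against 1.47%, from *Dusp5*, *Zfp36* and *Egr2*, whose windows overlap each other. An AP-1 site, TGANTCA, was in 1 window (2.56%, *Csrnp1*) against 6.75%, and TATAAA in 4 (10.3%: *Fos*, *Gadd45b*, *Gadd45g* and *Nr4a2*) against 12.4%. The windows of *Jund* and *Ier5* held none of these letters. The start is that of RefSeq, which was the GENCODE gene start for *Fos* and *Ier5* but lay 1210 bases upstream of it for *Jund*, and 36, 681 and 53656 bases downstream of it for *Dusp5*, *Socs3* and *Dusp1*. These counts describe letters in a window and not binding. Sequence outside the 250 bases was not searched, so a gene without a motif here may hold it elsewhere. That also holds for *Fos* and the serum response element.

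Depth was estimated from the FPKM that 1 fragment is worth in each library, and it was 8900000 to 11700000 fragments in WT and 6400000 to 11600000 in KO libraries. A count of 3 fragments on a transcript of 1 kb was worth 0.257 to 0.470 FPKM, which covers counting error only, and values near it were read as low. The targeted gene, *Gadd45gip1* (chr8:84831522-84835482, GRCm38, GENCODE M21), stood at 18.8, 15.3 and 16.5 FPKM in WT 1 to WT 3 and at 10.8, 7.54 and 10.4 FPKM in KO 1 to KO 3. The groups did not overlap, and the mean was 16.9 ± 1.76 FPKM in WT and 9.57 ± 1.78 FPKM in KO (SD, n = 3 each). Its log2 fold change was −0.77 (SE 0.22; limma p = 0.00534, adjusted p = 0.841, exact permutation p = 0.1), the smallest two-sided p that 3 mice against 3 allow. As defining markers of the tissue, all 12 endothelial markers on the list were above 0 in at least 1 library, with a summed level of 1102 to 1514 FPKM in WT and 968 to 1299 FPKM in KO.

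The immediate early genes lay mostly on the lower side in KO mice, and none of them passed the test. In limma on log2(FPKM + 1), 0 of 33 had an adjusted p under 0.05, and so had 0 of all 14247 genes (0%), while 838 of all genes had an unadjusted p under 0.05. At an unadjusted limma p under 0.05, 4 of the 33 (12.1%) were lower in KO, namely *Jund*, *Egr1*, *Egr3* and *Socs3*, against 3.11% of all genes tested, and 0 were higher, against 2.77%. The 3 KO values lay entirely below the 3 WT values for 4 genes (12.1%), *Jund*, *Egr3*, *Ier5* and *Arc*, against 5.7% of all genes, and entirely above them for 0, against 5.37%. The log2 fold change was below 0 for 29 of 33 (87.9%), against 50.8% of all genes. Its median over the 33 was −0.20, with quartiles of −0.48 and −0.10, beside −0.01 over all genes tested, with quartiles of −0.22 and 0.20. Genes of the group share signals and libraries, and these shares are descriptions without a test.

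The count and the median moved with GC content and with the choice of libraries. GC content of the longest transcript had a median of 55.6% over the tested members (42.4% to 68.2%) and of 50.0% over the 13726 tested genes with an annotated transcript. After the trend of each library on GC content was removed, 1 of the 33 (3.03%) was lower at an unadjusted limma p under 0.05 (*Egr3*) and 1 higher (*Gadd45g*), close to the 2.19% and 2.44% of all genes under the same correction. The KO values then lay entirely below the WT values for 2 of the 33 (6.06%), *Egr3* and *Arc*, beside 5.13% of all genes. The log2 fold change was below 0 for 23 of the 33 (69.7%) beside 51.7% of all genes, with a median of −0.13 beside −0.01. Without KO 2, 7 of the 33 (21.2%) were lower at that p, beside 5.87% of all genes. Without WT 2 there were 0, beside 1.42%, and without KO 3 there were 2 (6.06%), beside 3.43%, with 22 of the 33 (66.7%) below 0 beside 51.0% of all genes. With 1 library left out, the median ranged from −0.34 (without WT 3) to −0.19 (without KO 3). Leaving out 1 library turned the side of the log2 fold change for 14 of the 33 genes, whose values with all libraries lay between −0.37 and 0.17. The part of GC content in the result was not tested further.

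**Figure D1:**
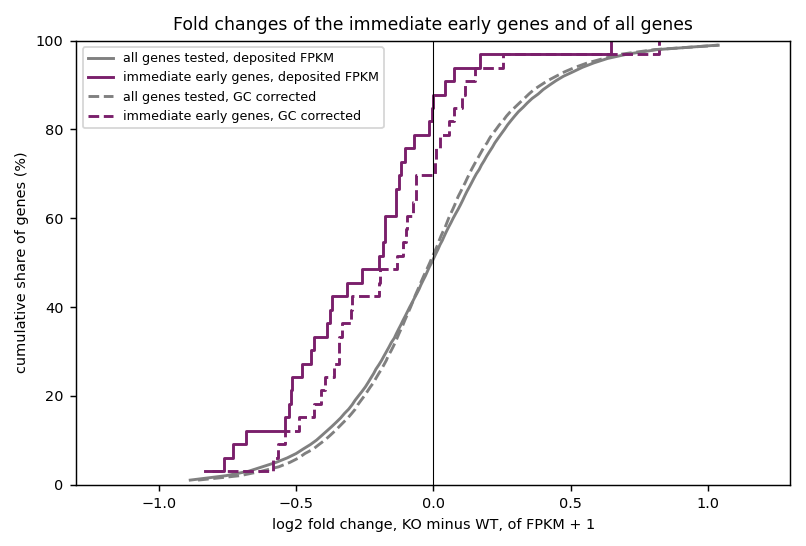
Cumulative share of genes (vertical axis, percent) by log2 fold change of FPKM + 1, KO minus WT (horizontal axis), for the 33 immediate early genes tested (purple) and all genes tested (grey, 1st to 99th percentile), from the deposited FPKM (solid) and after GC correction (dashed). The purple solid line crosses 50% near the median of −0.20 and the grey one near −0.01, and GC correction brings the purple line to −0.13.

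In this class and in those that follow, counts of genes below 0 stand beside 50.8% of all genes. AP-1 is a dimer of a Fos and a Jun protein. Both tested Fos subunits and all 3 Jun subunits had a log2 fold change below 0, with a median of −0.24 for the Fos and −0.48 for the Jun subunits, and 1 of these 5, *Jund*, was lower at an unadjusted p under 0.05, beside 3.11% of all genes. *Jund*, the Jun subunit that resting cells keep at a steady level, stood at 91.5, 84.5 and 93.5 FPKM in WT 1 to WT 3 and at 69.2, 58.9 and 64.6 FPKM in KO 1 to KO 3. The groups did not overlap, and WT and KO libraries each lay within a narrow band around 89.8 ± 4.74 and 64.2 ± 5.14 FPKM (SD, n = 3 each). The log2 fold change of *Jund* (chr8:70698949-70700616) was −0.48 (SE 0.18; limma p = 0.0263, adjusted p = 0.841, exact permutation p = 0.1). The limma p of *Jund* was over 0.05 without WT 1 (0.0769), WT 2 (0.0579) or WT 3 (0.0844), at log2 fold changes of −0.47, −0.52 and −0.45. Its transcript has a GC content of 67.1%, and after GC correction its log2 fold change was −0.29, the limma p was over 0.05 (0.195) and the groups overlapped.

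*Jun*, the subunit that gave the family its name and is induced by stress kinases, had 30.7, 24.2 and 18.6 FPKM in WT and 21.3, 12.4 and 15.9 FPKM in KO, where KO 1 lay above WT 3. Its log2 fold change was −0.54 (SE 0.26; limma p = 0.0621, adjusted p = 0.841, exact permutation p = 0.2). *Junb*, which can oppose *Jun*, ranged from 7.68 to 20.6 FPKM in WT and from 9.25 to 15.3 FPKM in KO, with the KO values inside the WT range. The classical marker *Fos* (chr12:85473890-85477273), whose cAMP response element cores and TATA box are shown above, had 2.13, 4.17 and 3.73 FPKM in WT and 3.36, 3.47 and 0.825 FPKM in KO. Only KO 3 fell outside the WT range, and the log2 fold change of −0.37 (SE 0.40; limma p = 0.385, adjusted p = 0.929, exact permutation p = 0.5) became 0.057 without KO 3.

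*Fosl2*, a Fos relative that lacks the strong activation domain of *Fos*, was the most abundant Fos subunit, with 7.39, 5.32 and 7.66 FPKM in WT and 5.97, 5.56 and 6.85 FPKM in KO. All 3 KO values lay between the lowest and the highest WT value. *Fosb*, under the filter, was listed at 0.720, 1.36 and 0.805 FPKM in WT and at 0, 1.12 and 0.240 FPKM in KO, or 0 to 45.8 estimated fragments (exact permutation p = 0.3). *Fosl1*, a subunit often raised in injured or growing cells, was listed at 0 in all 6 libraries. Of the related leucine zipper genes, *Maff*, a small Maf protein, had 6.16, 5.80 and 3.17 FPKM in WT and 7.41, 2.68 and 4.07 FPKM in KO. KO 1 was the highest and KO 2 the lowest of the 6 libraries, and *Atf3*, a stress-induced repressor, overlapped too, at 1.63 to 2.77 FPKM in WT and 1.10 to 2.68 FPKM in KO.

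The EGR genes encode zinc finger factors that bind GC-rich sites. The letters of such a site were found in the *Socs3* window, where binding was not tested. All 3 tested members were below 0 with a median of −0.76, and 2 of them were lower at an unadjusted p under 0.05, beside 50.8% and 3.11% of all genes. *Egr3*, which VEGF induces in endothelium and activity in neurons, stood at 2.99, 3.92 and 4.78 FPKM in WT 1 to WT 3 and at 0.800, 2.54 and 2.16 FPKM in KO 1 to KO 3. The groups did not overlap, with KO 1 the lowest, and the means were 3.90 ± 0.892 and 1.84 ± 0.917 FPKM (SD, n = 3 each). *Egr3* (chr14:70077203-70082614) had a log2 fold change of −0.83 (SE 0.35; limma p = 0.0371, adjusted p = 0.841, exact permutation p = 0.1). After GC correction it was −0.81, the limma p stayed under 0.05 (0.0438) and the groups still did not overlap. The limma p of *Egr3* was over 0.05 without WT 2 (0.0847), WT 3 (0.125) or KO 1 (0.137), at log2 fold changes of −0.82, −0.70 and −0.53.

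*Egr1*, the most abundant EGR gene and a mediator of growth factor and shear stress signals, had 12.7, 22.0 and 26.1 FPKM in WT and 12.9, 13.2 and 9.47 FPKM in KO. WT 1 lay among the KO libraries, and the other 2 WT libraries lay above all of them. The means were 20.3 ± 6.85 and 11.9 ± 2.08 FPKM (SD, n = 3 each), and the log2 fold change was −0.68 (SE 0.28; limma p = 0.0338, adjusted p = 0.841, exact permutation p = 0.3). The limma p of *Egr1* was over 0.05 without WT 2 (0.103), WT 3 (0.143) or KO 3 (0.108), at log2 fold changes of −0.60, −0.48 and −0.54, and after GC correction (0.0770, at −0.54). Without WT 1 the log2 fold change was −0.97, the limma p was under 0.05 (0.00408) and the groups did not overlap. *Egr4* ranged from 2.63 to 5.95 FPKM in WT and from 1.07 to 3.46 FPKM in KO, and its log2 fold change was −0.76 (SE 0.39; limma p = 0.0762, adjusted p = 0.841, exact permutation p = 0.3). It was −0.50 without WT 3, and without KO 2 it was −1.09, where the limma p was under 0.05 (0.0166) and the groups did not overlap. *Egr2*, a factor of myelinating glia and immune cells that was under the filter, was listed at 1.83, 0.225 and 0.985 FPKM in WT and at 0.584, 0 and 0.254 FPKM in KO (exact permutation p = 0.3). WT 2 and 2 KO libraries were below what 3 fragments on 1 kb are worth.

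**Figure D2:**
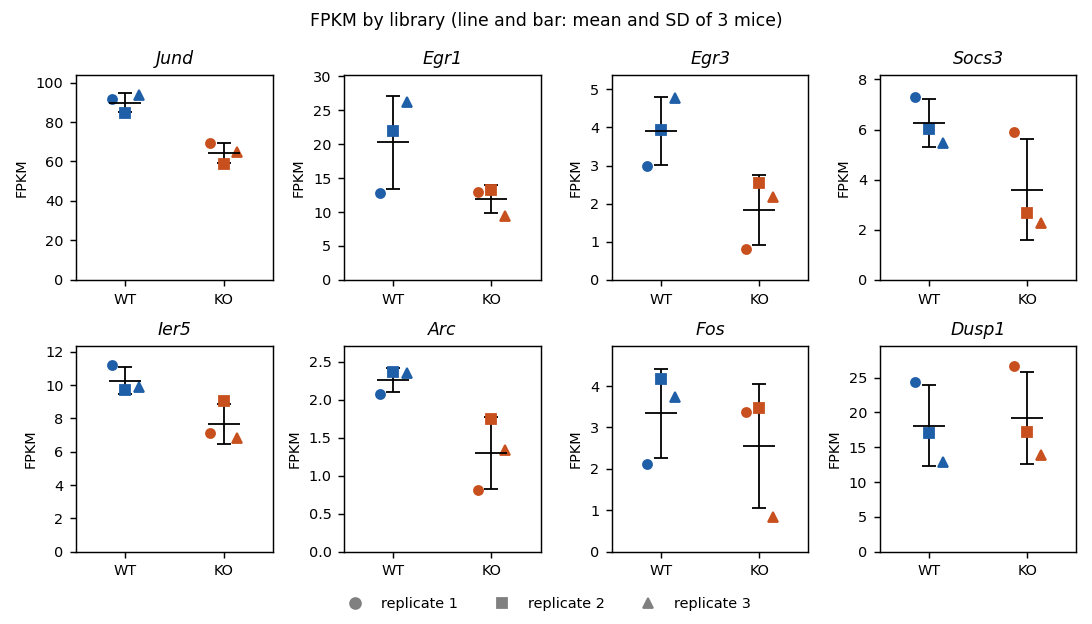
FPKM (vertical axis, from 0) of 8 immediate early genes in each WT (blue) and KO (orange) library; the marker shape gives the replicate number, which pairs nothing, and the horizontal line and bar give mean and SD of 3 mice. *Jund*, *Egr3*, *Ier5* and *Arc* show groups that do not overlap, while WT 1 of *Egr1* (12.7 FPKM) and KO 1 of *Socs3* (5.90 FPKM) lie within the other group, and *Fos* and *Dusp1* overlap widely.

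The NR4A genes encode orphan nuclear receptors that act without a known ligand. Of the 3, 2 had a log2 fold change below 0 and 1 above, with a median of −0.20. *Nr4a1*, the most abundant of them, stood at 8.42, 8.68 and 10.1 FPKM in WT and at 9.04, 11.7 and 4.25 FPKM in KO. KO 2 was the highest and KO 3 the lowest of the 6 libraries, and the log2 fold change was −0.20 (SE 0.32; limma p = 0.546, adjusted p = 0.952, exact permutation p = 0.9). Without KO 3 the log2 fold change of *Nr4a1* turned to 0.17, and without KO 2 it was −0.47. *Nr4a2* had the same order in KO mice, with 5.72 FPKM in KO 2 and 1.05 FPKM in KO 3 around a WT range of 3.63 to 4.65 FPKM, and its log2 fold change of −0.45 was −0.88 without KO 2 and −0.026 without KO 3. *Nr4a3* ranged from 3.19 to 5.37 FPKM in WT and from 3.34 to 4.82 FPKM in KO.

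The IER genes are small, quickly induced genes, of which *Ier3* guards against cell death. Of the 4, 3 were below 0 and 1 above, with a median of −0.28. *Ier5* (chr1:155096361-155099636), which acts with protein phosphatase 2A and heat shock factor, had 11.2, 9.71 and 9.91 FPKM in WT and 7.10, 9.04 and 6.83 FPKM in KO. The groups did not overlap, though KO 2 lay close below the lowest WT library, and the means were 10.3 ± 0.803 and 7.65 ± 1.20 FPKM (SD, n = 3 each). The log2 fold change of −0.39 (SE 0.21) had a limma p of 0.101 (adjusted p = 0.841, exact permutation p = 0.1). After GC correction it was −0.34, and the groups overlapped. Without KO 2 it was −0.50, and the limma p was under 0.05 (0.0436), while without KO 3 it was −0.32.

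*Ier2*, the most abundant IER gene, stood at 17.8, 30.1 and 13.1 FPKM in WT and at 14.8, 15.6 and 13.4 FPKM in KO. WT 2 stood above the others, and the KO libraries lay close together inside the WT range. Its log2 fold change was −0.37 (SE 0.28; limma p = 0.214, adjusted p = 0.877, exact permutation p = 0.4). It was −0.062 without WT 2, and without WT 3 it was −0.63, where the limma p was under 0.05 (0.0475) and the groups did not overlap. *Ier3* had 8.17 to 11.7 FPKM in WT and 9.63 to 15.8 FPKM in KO and a log2 fold change of 0.17 (SE 0.25), which was −0.035 without KO 1, 0.020 without WT 3 and 0.30 without KO 3. *Ier5l* had 9.63 to 12.2 FPKM in WT and 7.28 to 11.8 FPKM in KO.

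All 5 other nuclear factors were below 0 (median −0.26), beside 50.8% of all genes. Of these 5, 0 had an unadjusted limma p under 0.05. *Klf6*, a Krüppel-like factor of injured endothelium, was the most abundant, with 25.9, 17.8 and 13.7 FPKM in WT and 17.2, 15.0 and 13.8 FPKM in KO. The 3 KO values lay inside the WT range, where WT 1 was the highest, and the log2 fold change of −0.26 was −0.027 without WT 1. *Npas4*, the activity-dependent factor of neurons, ranged from 1.57 to 2.36 FPKM in WT and from 0.329 to 2.70 FPKM in KO, with KO 2 above and the other KO libraries below every WT value. *Csrnp1*, a cysteine- and serine-rich nuclear protein, had 2.48 to 3.93 FPKM in WT and 1.37 to 3.25 FPKM in KO. *Myc*, the growth regulator, had 4.06 to 5.69 FPKM in WT and 3.16 to 5.90 FPKM in KO, and *Btg2*, an antiproliferative gene, 7.10 to 13.9 FPKM in WT and 8.08 to 13.0 FPKM in KO.

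Among the genes that shut the response down, *Socs3* was the one with an unadjusted limma p under 0.05. The 3 tested MAP kinase phosphatases had a median of −0.07, with 2 below 0 and 1 above, and the 4 other feedback inhibitors had a median of −0.09, with all 4 below 0, of which *Trib1* and *Ppp1r15a* had a log2 fold change of −0.00. The side of these 2 depended on single libraries. *Ppp1r15a* was 0.36 without KO 2, where the groups did not overlap, and −0.25 without KO 3. *Trib1* was 0.16 without WT 2, where the groups did not overlap, and −0.09 without WT 3. *Dusp1*, which carries the full cAMP response element shown above and inactivates p38 and JNK, stood at 24.4, 17.0 and 12.9 FPKM in WT and at 26.6, 17.2 and 13.8 FPKM in KO. Both groups covered nearly the same range, and the log2 fold change was 0.08 (SE 0.29; limma p = 0.802, adjusted p = 0.981, exact permutation p = 0.7). With 1 library left out it ranged from −0.17 (without KO 1) to 0.30 (without WT 1). *Dusp6*, which inactivates ERK, had 13.1 to 18.3 FPKM in WT and 10.9 to 18.9 FPKM in KO. *Dusp2*, a nuclear phosphatase best known in immune cells, had 1.42 to 2.10 FPKM in WT and 0 to 2.31 FPKM in KO, where it was listed at 0 in KO 1, and its log2 fold change was −0.51 (SE 0.47) with all libraries and −0.022 without KO 1. *Dusp5*, the nuclear ERK phosphatase with the adjoining serum response elements, was under the filter and listed at 0.340, 0 and 1.44 FPKM in WT and at 0, 1.19 and 0.165 FPKM in KO, or 0 to 41.5 estimated fragments (exact permutation p = 0.8).

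*Socs3* (chr11:117966079-117970047), the inhibitor of gp130 and JAK-STAT3 signaling, stood at 7.30, 6.01 and 5.46 FPKM in WT 1 to WT 3 and at 5.90, 2.66 and 2.26 FPKM in KO 1 to KO 3. KO 1 lay among the WT libraries, and KO 2 and KO 3 lay below all of them. The means were 6.26 ± 0.947 and 3.61 ± 2.00 FPKM (SD, n = 3 each), and the log2 fold change was −0.73 (SE 0.32; limma p = 0.0460, adjusted p = 0.841, exact permutation p = 0.2). The limma p of *Socs3* was over 0.05 without WT 1 (0.132), WT 2 (0.0838), WT 3 (0.0615), KO 2 (0.115) or KO 3 (0.151), at log2 fold changes of −0.63, −0.75, −0.81, −0.61 and −0.52, and after GC correction (0.106, at −0.57). It was also over 0.05 with no filter (0.0699) and with quantile normalization (0.0523). Without KO 1 the log2 fold change was −1.06, and the limma p was under 0.05 (0.00512). *Ppp1r15a*, which directs a phosphatase to eIF2α during the stress response, had 8.31, 11.99 and 12.2 FPKM in WT and 12.6, 6.03 and 15.5 FPKM in KO. Both the lowest and the highest value were in KO libraries. *Zfp36*, which destabilizes cytokine mRNAs, had 7.91 to 13.6 FPKM in WT and 8.98 to 10.1 FPKM in KO, and *Trib1*, a pseudokinase, 5.08 to 7.57 FPKM in WT and 5.61 to 6.25 FPKM in KO.

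The last class joins growth arrest genes, a small GTPase and a synapse gene, of which 3 of 4 were below 0. *Arc* (chr15:74669083-74672570), a synaptic protein of active neurons, stood at 2.08, 2.36 and 2.35 FPKM in WT and at 0.808, 1.75 and 1.34 FPKM in KO. The WT libraries lay close together and above all KO libraries, with means of 2.27 ± 0.159 and 1.30 ± 0.473 FPKM (SD, n = 3 each). The log2 fold change of *Arc* was −0.53 (SE 0.33; limma p = 0.140, adjusted p = 0.848, exact permutation p = 0.1), on 19.7 to 83.9 estimated fragments per library. It was −0.82 with a pseudocount of 0.1, and after correction for length and GC content it was −0.34 and the groups overlapped.

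*Rhob*, a small GTPase induced by stress and growth factors, was the most abundant of the 37 per length, with 130, 107 and 98.2 FPKM in WT and 110, 76.3 and 84.4 FPKM in KO. KO 1 lay among the WT libraries, and the log2 fold change was −0.32 (SE 0.22; limma p = 0.180, adjusted p = 0.853, exact permutation p = 0.3). It was −0.20 without WT 1 or without KO 2, and without KO 1 it was −0.47 and the groups did not overlap. *Gadd45g*, a growth arrest gene, had a log2 fold change of 0.65 (SE 0.35; limma p = 0.0941, adjusted p = 0.841, exact permutation p = 0.2). It ranged from 2.96 to 9.31 FPKM in WT, where WT 2 was low, and from 8.05 to 12.3 FPKM in KO, and without WT 2 the log2 fold change was 0.24. Its limma p was over 0.05 under 13 of the 15 alternatives tried, and under it without WT 1 (0.0298) and after GC correction (0.0481). *Gadd45b*, its relative, had 3.86 to 8.20 FPKM in WT and 4.12 to 8.88 FPKM in KO.

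**Figure D3:**
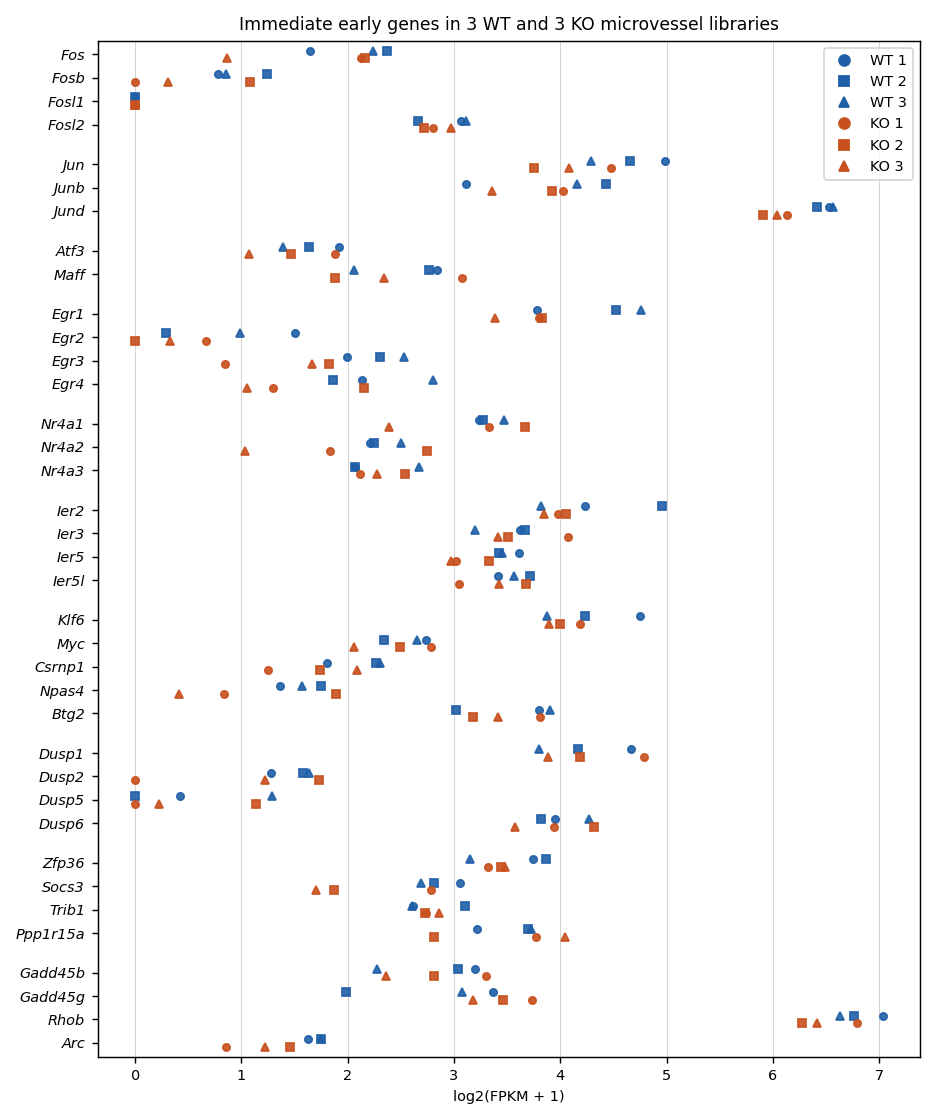
log2(FPKM + 1) (horizontal axis) of all 37 immediate early genes by role, with each WT (blue) and KO (orange) library as a point whose shape gives the replicate number. *Rhob* and *Jund* stand far above the rest, *Fosl1* is at 0 in all 6 libraries, and KO 3 (orange triangle) is the lowest library of *Fos*, *Egr1*, *Egr4*, *Nr4a1* and *Nr4a2*, among others.

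**Figure D4:**
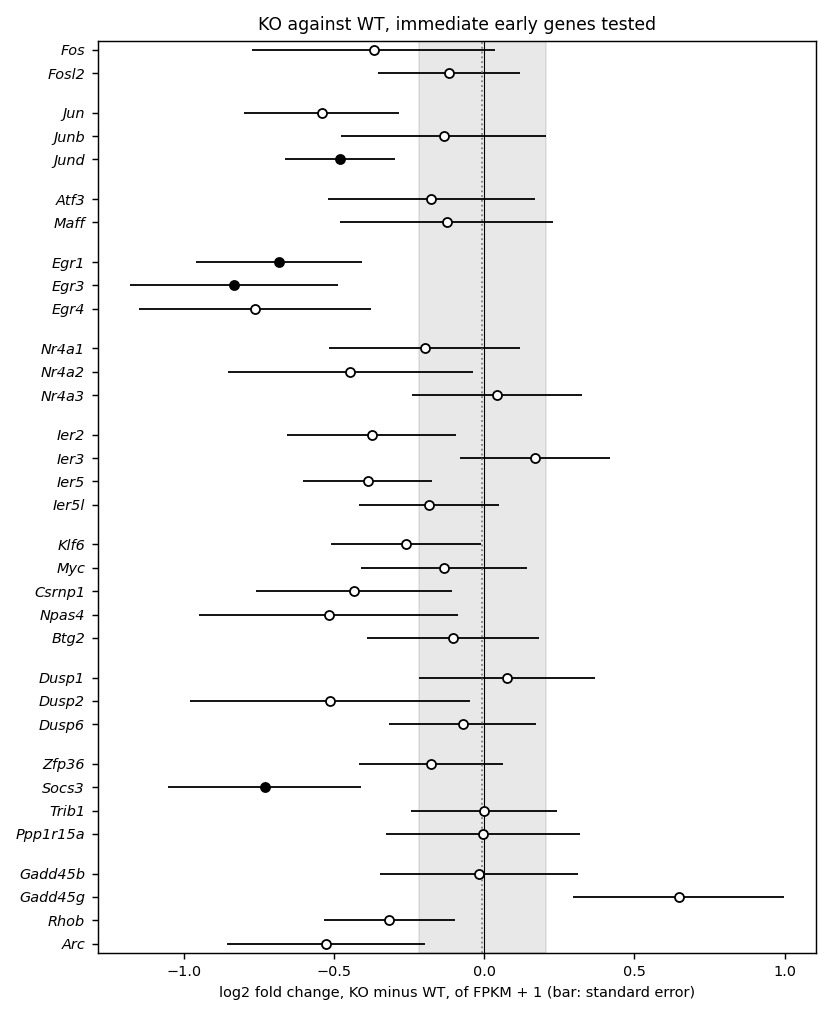
log2 fold change of FPKM + 1, KO minus WT (horizontal axis), of the 33 genes tested, with the standard error as a bar and filled points for an unadjusted limma p under 0.05. The grey band runs from the lower to the upper quartile of all genes tested (−0.22 to 0.20), the dotted line is their median, and 29 of the 33 points lie below 0.

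The KO libraries did not contribute equally. KO 3 was the lowest of the 6 libraries for 11 of the 33 genes and the highest for 1, whereas each other library was the highest for 5 to 8 and the lowest for 2 to 7. These counts and the deviations below were not taken over all genes. Whether KO 3 was low for these genes in particular or for genes in general was therefore not tested. The median deviation of the 33 genes from their WT mean was −0.47 (log2) in KO 3, −0.10 in KO 1 and −0.15 in KO 2, and it was −0.06 to 0.06 in the WT libraries. Of the 33, 28 lay below the WT mean in KO 3, 21 in KO 1, 22 in KO 2 and 14 to 17 in the WT libraries. The WT libraries make up that mean, which keeps their values close to it by construction. They are therefore no baseline for the KO libraries. The summed level of all 37 genes was 507, 483 and 462 FPKM in WT 1 to WT 3 and 445, 379 and 353 FPKM in KO 1 to KO 3, a sum that *Rhob* and *Jund* dominate.

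**Figure D5:**
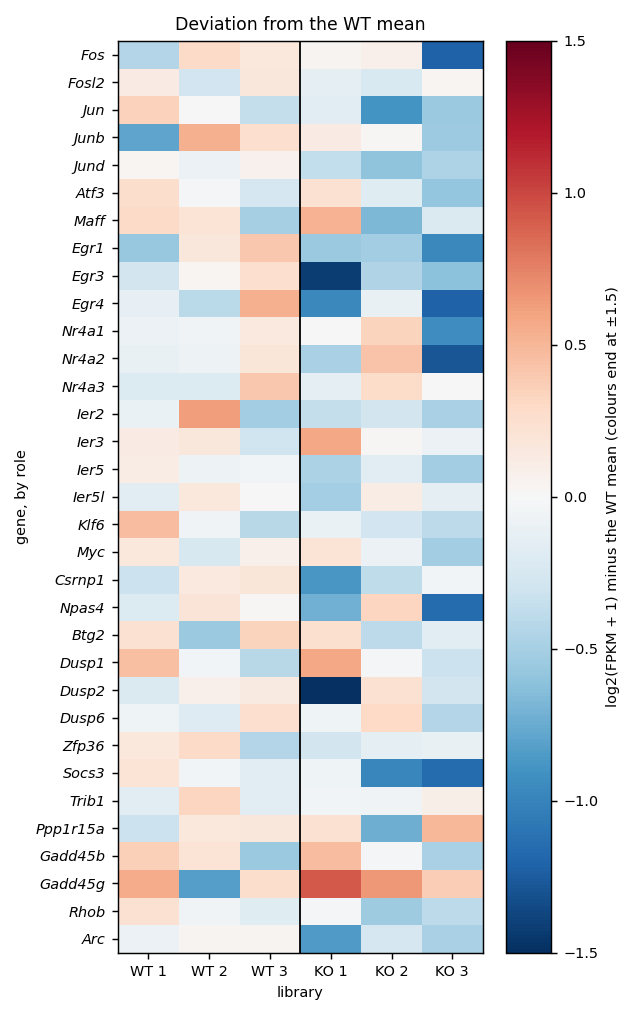
Deviation of log2(FPKM + 1) from the WT mean (colour, red above and blue below) for the 33 genes tested (rows, by role) in the 6 libraries (columns; the black line parts WT from KO). The KO 3 column is the bluest, with 28 of 33 genes below the WT mean, and the deepest blues lie in different KO libraries for different genes.

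Markers of other cell types were summed in the same libraries. Their counts at an unadjusted limma p under 0.05 stand beside 3.11% of all genes that were lower at it. For these lists and those that follow, counts below 0 stand beside 50.8% of all genes. All 10 neuron markers were tested, and 8 had a log2 fold change below 0 (median −0.24), 1 of them, *Slc17a7*, with an unadjusted limma p under 0.05 (log2 fold change −0.86, SE 0.30, p = 0.0184, adjusted p = 0.841, exact permutation p = 0.2). Their summed level was 305, 451 and 589 FPKM in WT 1 to WT 3 and 278, 503 and 245 FPKM in KO 1 to KO 3, and none of the 10 was at 0 throughout. WT 1, KO 1 and KO 3 were thus low and WT 2, WT 3 and KO 2 high, and the groups overlapped. All 8 astrocyte markers were below 0 (median −0.27), 2 of them (*Gja1* and *Gfap*) with an unadjusted limma p under 0.05, with 763 to 900 FPKM in WT and 606 to 652 FPKM in KO.

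Vascular markers differed in their sides. Of the 12 endothelial markers, 9 were below 0 (median −0.16), and *Cdh5*, the cadherin of endothelial junctions, stood at 86.7, 92.4 and 91.3 FPKM in WT and at 50.8, 42.5 and 38.1 FPKM in KO (log2 fold change −1.03, SE 0.19; limma p = 0.000303, adjusted p = 0.841, exact permutation p = 0.1). Of the 8 pericyte markers, 7 were below 0, 2 of them (*Cspg4* and *Anpep*) with an unadjusted limma p under 0.05 (median −0.29; 829 to 1327 FPKM in WT and 866 to 970 FPKM in KO), and all 5 smooth muscle markers were above 0 (median 0.39; 370 to 838 and 398 to 1049 FPKM). All 5 fibroblast markers (median −0.32; 1205 to 1809 and 800 to 1105 FPKM), 5 of 6 microglia markers (median −0.32; 132 to 170 and 101 to 134 FPKM) and 5 of 6 oligodendrocyte markers (median −0.44; 276 to 399 and 149 to 353 FPKM) were below 0, of which 1 fibroblast, 1 microglia and 2 oligodendrocyte markers had an unadjusted limma p under 0.05. The summed oligodendrocyte level was 399, 276 and 354 FPKM in WT 1 to WT 3 and 353, 275 and 149 FPKM in KO 1 to KO 3. Of the 4 erythroid markers, 3 were below 0 (median −0.35; 1765 to 2425 and 1209 to 2341 FPKM), 1 of them, *Hbb-bs*, with an unadjusted limma p under 0.05. It was listed at 0, 126 and 10.6 FPKM in WT and at 0 in every KO library. No marker on these lists was at 0 in all 6 libraries. The part of these cell types in the levels of the immediate early genes was not tested.

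The kinases and factors upstream of the immediate early genes were spread to both sides. Of 15 kinases (the Raf, MEK, ERK, JNK, p38, RSK and MSK genes), 8 were below and 7 above 0, with a median of −0.02 and 0 at an unadjusted limma p under 0.05. Of 21 factors (among them *Srf*, the *Elk* genes and *Creb1*), 12 were below and 9 above 0, with a median of −0.12. Among them, *Crtc3*, a coactivator of CREB, had 10.8, 10.8 and 10.7 FPKM in WT and 6.91, 6.99 and 6.69 FPKM in KO. The groups stood clearly apart with little spread within them, and the log2 fold change was −0.58 (SE 0.20; limma p = 0.0154, adjusted p = 0.841, exact permutation p = 0.1).

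Of 39 other genes that the same signals induce, 35 were tested, and 22 were below and 13 above 0, with a median of −0.10. At an unadjusted limma p under 0.05, 3 (8.57%) were lower and 1 (2.86%) was higher in KO, beside 3.11% and 2.77% of all genes. *Klf2*, the flow-induced factor of endothelium, stood at 58.2, 48.5 and 40.5 FPKM in WT and at 30.8, 31.0 and 29.8 FPKM in KO, and the groups did not overlap (log2 fold change −0.65, SE 0.20; limma p = 0.00822, adjusted p = 0.841, exact permutation p = 0.1). *Klf4*, which acts beside it, had 24.2, 27.5 and 22.3 FPKM in WT and 13.8, 13.9 and 19.5 FPKM in KO, without overlap (−0.63, SE 0.21; limma p = 0.0138, adjusted p = 0.841, exact permutation p = 0.1). *Vgf*, a neuropeptide precursor, had 46.2, 65.7 and 63.3 FPKM in WT and 36.7, 40.8 and 16.3 FPKM in KO (−0.96, SE 0.32; limma p = 0.0140, adjusted p = 0.841, exact permutation p = 0.1). *Nfkbia*, the inhibitor of NF-κB, was the one on the higher side, with 23.4 to 32.5 FPKM in WT and 30.2 to 47.1 FPKM in KO, where the groups overlapped (0.52, SE 0.23; limma p = 0.0457, adjusted p = 0.841, exact permutation p = 0.2).

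Heat shock genes, another early response to stress, were balanced, with 6 of 13 below and 7 above 0 and a median of 0.11. Their summed level was 1918 to 2226 FPKM in WT and 1500 to 2408 FPKM in KO. The 1 gene with an unadjusted limma p under 0.05 was *Bag3*, a cochaperone, with 13.8 to 19.9 FPKM in WT and 6.81 to 11.9 FPKM in KO (log2 fold change −0.76, SE 0.26; p = 0.0157, adjusted p = 0.841, exact permutation p = 0.1).

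The immediate early genes were short genes, with a median span of 3969 nt beside 24503 nt over the tested genes, and a median longest transcript of 2683 nt beside 3387 nt. They lay on 17 chromosomes, and the 5 on chromosome 15 were the most on any. The targeted gene lies between *Ier2* (chr8:84661331-84662852, 169 kb away) and *Junb* (chr8:84974484-84978718, 139 kb away), and *Jund* is 14131 kb away on the same chromosome. Of the 29 other tested genes within 500 kb on either side of *Gadd45gip1*, 16 had a log2 fold change below 0, with a median of −0.13, and 0 were lower and 1 was higher at an unadjusted limma p under 0.05.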

How the data were processed

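RNA of cerebral microvessels was extracted with TRIzol, made into libraries with a directional NEBNext kit and sequenced as paired ends. The authors trimmed the reads, mapped them with TopHat (mm10, according to the submitters' processing notes) and deposited an FPKM value per gene symbol and library. The program that computed FPKM is not given in the sources used here. The authors tested differential expression with DESeq2, and no read counts were used here.

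KO was compared with WT by genotype. Genes whose mean reached 1 FPKM (14247) were fitted as log2(FPKM + 1) in limma 3.58.1 (R 4.3.3, trended variance), with Benjamini-Hochberg adjustment over all of them. A fold change on this scale understates that of low genes. For single genes, an exact permutation test (two-sided) ran over the 20 assignments of the libraries. Replicate numbers are those of the sample titles, while the column headers of the deposited files carry other numbers, so that the numbers serve as names. The labels do not say how the mice relate, so p-values measure the spread between these libraries. Fits were tested on simulated data.

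Depth was estimated from the spacing of low FPKM values. Coordinates, GC contents and lengths (longest transcript) are from GENCODE M21, and promoters from RefSeq. The alternatives were no filter or one at 5 FPKM, a pseudocount of 0.1, median scaling, quantile normalization, no trended variance, a replicate block, loess corrections (span 0.3) for GC content or for length and GC content, and leaving out each library.

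All 37 members were accounted for. Values in every library are given for members with an unadjusted limma p under 0.05 or groups that do not overlap, for the most abundant member of each role and for members under the filter, and up to 5 genes of each other list were eligible by the smallest unadjusted p under 0.05. The members and lists were chosen with earlier results of these data known. Python 3.11.15 with pandas 2.3.3 and matplotlib 3.10.9 was used for the rest.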

Additional observations from a re-analysis of the deposited data

How the results depend on the processing

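No immediate early gene had an adjusted limma p under 0.05 under any alternative tried, and their median log2 fold change was below 0 under each, from −0.34 to −0.19 with a library left out and −0.20 with all 6. The number of them with an unadjusted limma p under 0.05, 4 in all, was 2 of 20 with the filter at a mean of 5 FPKM (10.0% lower, beside 3.57% of all genes), 2 with GC correction (1 on each side) and 1 with length and GC correction (3.03% lower, beside 2.29%). With 1 library left out it ranged from 0 to 7, while all genes at that p ranged from 451 to 1865 around 838, and the 5 upstream and other induced genes from 3 to 8. *Fos* ranged from −0.59 to 0.057 (log2 fold change), and without KO 3 it was 0.057, the only value on the other side among its alternatives. Why these counts moved was not tested, apart from the smaller number of genes or libraries that a filter or an omission leaves. Same-numbered libraries had correlations of their deviations of 0.0375, 0.0267 and 0.0016, and not every library correlated best with its own number, so the numbers, which differ between sample titles and file headers, were not taken as pairs. With a replicate block, 871 of all genes and 4 immediate early genes had an unadjusted p under 0.05, with *Jun* (0.0422) in the place of *Jund* (0.0512). Depth limits *Fosb*, *Egr2*, *Dusp5* and *Fosl1*, which were not tested, and *Dusp2*, *Npas4*, *Arc*, *Fos*, *Atf3*, *Egr4* and *Egr3*, whose lowest libraries hold an estimated 0 to 25.1 fragments.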
